A study of Bos taurus with 48 samples.

Results

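P2RY12 and P2RY14, a pair of receptors for extracellular nucleotides, were followed in total leukocytes of beef calves around weaning and housing. They were 2 of the 25669 genes of the count table, chosen by name as the rows ENSBTAG00000015837 and ENSBTAG00000020990, which the study's ortholog tables pair with human P2RY12 and P2RY14. Both are on gene lists that the study drew from these same samples, so that their direction here is not independent evidence. In levels, P2RY12 was measured in all 48 libraries with 4 to 282 counts and P2RY14 with 1 to 88 counts. Neither receptor was called in any of the 13 comparisons by the test used here, and for both the spread between calves of a group was larger than for most genes.

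P2RY12 and P2RY14 belong to the P2Y family of G protein coupled receptors, which sense nucleotides released from stressed, dying or activated cells. Both couple to the inhibitory G protein Gi, which lowers cyclic AMP in the cell. P2RY12 binds ADP and is best known on platelets, where it sustains aggregation and is the target of clopidogrel, whereas P2RY14 binds UDP-glucose and related UDP-sugars and is known from neutrophils and other immune cells. In the RefSeq gene table of the cattle assembly ARS-UCD2.0 both genes lie on chromosome 1 within the span of MED12L. The library protocol did not mark the strand, so that reads of overlapping genes on opposite strands could not be told apart.

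Libraries came from 12 intact male Simmental calves born in spring, reared at pasture with their dams and vaccinated against respiratory viruses before the study. On d 0, after the first blood sample, 6 calves were separated abruptly from their dams and housed with other weaned calves (weaned), and 6 were housed together with their dams (control). Each calf gave 1 library on d 0, 1, 2 and 7, which makes 8 groups of 6 libraries. Housing was shared by both treatments, so that a change from d 0 in control calves goes with housing and time, and in weaned calves with weaning, regrouping and housing together. Red cells had been lysed and leukocytes were not sorted. In such bulk samples fewer cells of a type and less RNA per cell cannot be told apart.

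Total counts per library lay between 1662995 and 4256011, and the detection limit of 3 counts was 0.686 to 2.08 CPM (counts scaled to library size with TMM factors over the 48 libraries). P2RY12 was above 3 counts in every library, and P2RY14 was at or under 3 counts in 3 libraries. Several libraries went against their labels. Over the 100 genes that differed most between the other 9 calves, the d 7 libraries labelled 1758 and 1770 were each closest to a library of the other calf (r = 0.713 and 0.651, against at most 0.482 and 0.138 with their own), and the d 2 library of control calf 1755 and the d 0 library of weaned calf 1758 were closest to each other (r = 0.675) and not to their own calf. The d 0 library of control calf 1763 was about as close to calf 1789 (r = 0.652) as to its own calf (0.626) and was kept. Several results that rest on the 4 libraries are also given without them, and the labels were left as they were.

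In weaned calves P2RY12 was low and even before weaning and uneven afterwards. On d 0 it ranged from 9.34 CPM in calf 1770 to 21.9 CPM in calf 1762, with a median of 13.8 CPM. On d 1 it ranged from 14.9 to 46.6 CPM with a median of 22.5 CPM, the highest value being that of calf 1773. All but 1 weaned calf were higher on d 1 than on d 0, calf 1769 only slightly (14.9 against 14.4 CPM). The ranges of the groups overlapped. On d 2 the range was 9.24 to 66.5 CPM with a median of 17.3 CPM. Calves 1758 and 1762 stood at 66.5 and 62.8 CPM and the next calf at 21.7 CPM, so that these calves held 67.3% of the group's 636 counts. On d 7 the range was 5.65 to 61.1 CPM with a median of 18.5 CPM. The library labelled 1758 alone held 44.3% of the counts of that day.

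In control calves P2RY12 was scattered on d 0 and narrowest in range on d 7. On d 0 it ranged from 7.48 to 32.1 CPM with a median of 13.2 CPM, and calves 1803 and 1755 were the highest. On d 1 the range was 5.24 to 51.4 CPM with a median of 14.1 CPM. Calf 1755 stood alone at the top of d 1, since the next calf reached 17.0 CPM. On d 2 the range was 2.77 to 28.1 CPM with a median of 22.1 CPM. Calf 1759 gave the lowest value of all 48 libraries on d 2, with 4 counts. On d 7 the range was 5.79 to 15.0 CPM with a median of 11.2 CPM.

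Ordered by mean log2(CPM + 1), the P2RY12 level was highest in weaned calves on d 1 (4.61 ± 0.54, SD, n = 6), followed by weaned d 2 (4.56 ± 1.21), weaned d 7 (4.28 ± 1.06), control d 2 (4.03 ± 1.13), control d 1 (3.98 ± 1.01), control d 0 (3.92 ± 0.83) and weaned d 0 (3.92 ± 0.38), with control d 7 lowest (3.44 ± 0.56). Every step between neighbours in this order was smaller than their pooled SD, apart from the last, where the gap of 0.48 was as large as the pooled SD of 0.47.

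P2RY14 had few counts, and the highest calf held 24.6% to 57.1% of a group's counts. In weaned calves on d 0 it ranged from 1.60 to 4.64 CPM with a median of 2.49 CPM and 7 to 14 counts a calf. On d 1 the range was 1.29 to 9.71 CPM with a median of 3.36 CPM. Calf 1758 was the highest on d 1. On d 2 the range was 1.25 to 37.9 CPM with a median of 2.41 CPM. Calves 1762 (37.9 CPM) and 1758 (17.5 CPM) held 85.7% of the group's 189 counts, and the other 4 calves did not exceed 2.75 CPM, below the highest value of d 0. On d 7 the range was 0.537 to 6.17 CPM with a median of 2.75 CPM.

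In control calves on d 0 P2RY14 ranged from 2.19 to 17.5 CPM with a median of 4.15 CPM. Calves 1803 and 1755 held 73.8% of the 172 counts of that group, and the third calf was at 4.41 CPM. On d 1 the range was 1.33 to 18.5 CPM with a median of 2.78 CPM, with calf 1755 again the highest. On d 2 the range was 1.39 to 12.99 CPM with a median of 6.44 CPM, and calf 1789 was the highest. On d 7 the range was 0.350 to 10.9 CPM with a median of 2.74 CPM, from 1 count in calf 1789 to 32 counts in calf 1802. Mean log2(CPM + 1) was highest in control d 0 (2.81 ± 1.10) and lowest in weaned d 0 (1.85 ± 0.40), with control d 2, weaned d 2, control d 1, weaned d 1, control d 7 and weaned d 7 between them in that order, and no step between neighbours reached their pooled SD.

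**Figure D1:**
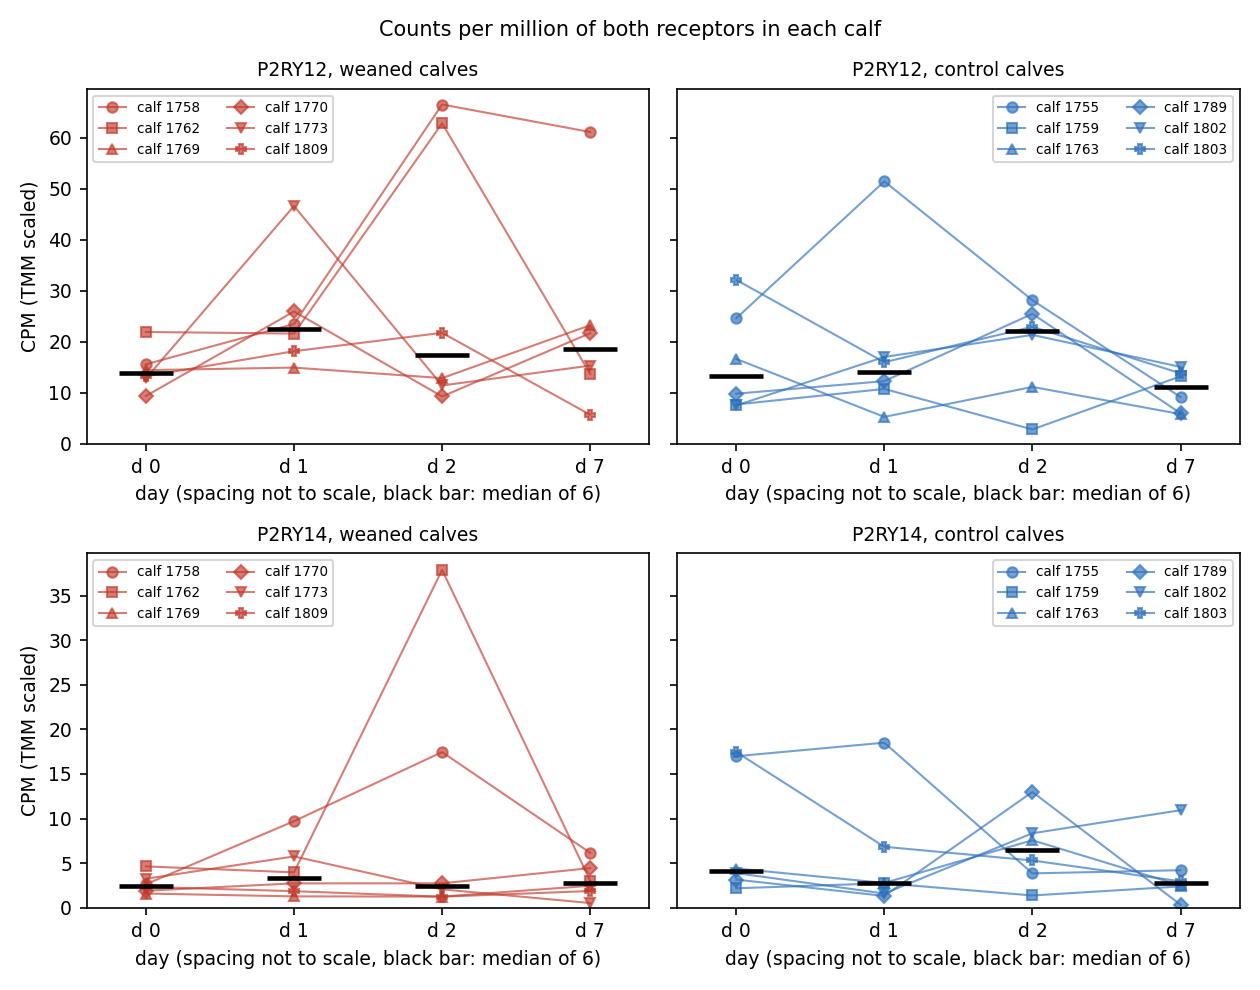
Level of P2RY12 (top) and P2RY14 (bottom) in CPM in each of 6 weaned and 6 control calves on d 0, 1, 2 and 7, with lines joining the libraries labelled as the same calf and black bars at the group medians. Calves 1758 and 1762 stand apart on d 2 in both receptors, at 66.5 and 62.8 CPM of P2RY12, while calves 1755 and 1803 are the highest control calves on d 0.

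Weaned calves were compared with control calves on each day to ask how weaning added to housing. Differences are log2 fold changes with their standard error (SE) from edgeR's quasi-likelihood F-test over all genes with at least 10 counts, and calls needed 2-fold or more and P under 0.05 after Benjamini-Hochberg adjustment. On d 0, before treatment, P2RY12 differed by -0.15 (SE 0.34, adjusted P = 0.840). On d 1 it differed by 0.39 (SE 0.44, adjusted P = 0.959) and on d 2 by 0.68 (SE 0.52, adjusted P = 0.950). On none of these days was either receptor called, which holds for all genes (0% called on d 0, 1 and 2, with 6.23%, 3.01% and 3.37% of genes at an unadjusted P under 0.05, and 0 calls by DESeq2). The d 1 difference was 0.13 without calf 1773 and 1.01 without calf 1755, and that of d 2 was 0.27 without calf 1758.

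On d 7 the P2RY12 difference between treatments was 1.17 (SE 0.44, unadjusted P = 0.0154, adjusted P = 0.158), with weaned calves higher. It was not called, in a comparison where 0% of 13932 genes were called although 25.5% had an unadjusted P under 0.05, 17.6% of all genes being higher in weaned calves and 7.9% lower. Weaned calves ranged from 5.65 to 61.1 CPM and control calves from 5.79 to 15.0 CPM, so that the lowest weaned calf lay below all control calves, and the exact permutation test of the calf labels gave a two-sided P of 0.106. The difference was 0.62 without calf 1758 and 1.37 without calf 1809, when it was called (adjusted P = 0.0280) together with 1137 genes in all. Without the d 7 libraries labelled 1758 and 1770 it was 0.47 (adjusted P = 0.608). DESeq2 gave 1.18 (adjusted P = 0.0862) and called 26 genes in this comparison.

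Before weaning, on d 0, the P2RY14 level was lower in the calves to be weaned, by a log2 difference of -1.55 (SE 0.51, unadjusted P = 0.00804, adjusted P = 0.624), and 4.13% of genes were lower at an unadjusted P under 0.05. The highest weaned value, 4.64 CPM, lay above that of 4 of the 6 control calves, and the permutation test gave an exact two-sided P of 0.0714. On d 1 the difference was -0.44 (SE 0.63), on d 2 0.56 (SE 0.75) and on d 7 -0.35 (SE 0.57), with adjusted P of 0.959, 0.950 and 0.698. On d 2 the mean log2(CPM + 1) went the other way, 0.16 lower in weaned calves than in control calves. Without calf 1755 the d 1 difference turned to 0.44, without calf 1762 that of d 2 to -0.44, and without calf 1802 that of d 7 to 0.30.

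Libraries were spread over 8 flowcells, and 8 to 10 of the 12 libraries of a day shared a flowcell with the other treatment. With flowcell as a block the P2RY12 differences were 0.14, 1.26, 0.13 and 1.25 on d 0, 1, 2 and 7, so that only that of d 7 was close to the unblocked value. The d 1 value had an unadjusted P of 0.000970 and an adjusted P of 0.362. For P2RY14 the blocked differences were -0.78, 0.98, -0.68 and -0.21, and those of d 1 and d 2 were opposite in sign to the unblocked ones. Only libraries that shared a flowcell with the other treatment bear on the blocked differences. On d 1 these were 8 libraries on 4 flowcells, and calf 1755 was among those that dropped out. Without calf 1755 the unblocked P2RY12 difference of d 1 was 1.01. The parts of the flowcell and of the calves that dropped out were not tested further.

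Within weaned calves each later day was compared with d 0. On d 1 P2RY12 was higher by 0.77 (SE 0.27, unadjusted P = 0.0118, adjusted P = 0.423), and it was higher in 5 of 6 calves (exact two-sided sign-flip permutation P = 0.0625, where 0.0312 is the smallest possible). No gene was called in this comparison (0% of 14038, with 10.4% at an unadjusted P under 0.05 and 6.07% also higher), DESeq2 called 1 gene, and with calf as replicate block 2 genes were called and P2RY12 was at 0.71 (adjusted P = 0.153). Calf 1773 gave the widest change, 1.79 on the log2(CPM + 1) scale, and calves 1762 and 1769 changed by -0.02 and 0.05. The difference was 0.46 without calf 1773. P2RY14 differed by 0.62 (SE 0.45, adjusted P = 0.468), was higher in 3 of 6 calves, and was at 0.18 without calf 1758. The d 0 library of calf 1758 was among those that went against their labels. Without this calf the mean changes in log2(CPM + 1) were 0.73 for P2RY12 and 0.09 for P2RY14, against 0.70 and 0.33 with all calves. The permutation P was then 0.125 and 0.75.

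On d 2 the mean of both receptors in weaned calves was above that of d 0, through calves 1758 and 1762. P2RY12 differed by 1.07 (SE 0.47, unadjusted P = 0.0380) and P2RY14 by 1.88 (SE 0.78, unadjusted P = 0.0292), both with an adjusted P of 0.944, and 0% of 13984 genes were called while 2.11% had an unadjusted P under 0.05 and DESeq2 called 0. In calves 1758 and 1762 P2RY12 changed by 2.03 and 1.48 and P2RY14 by 2.34 and 2.78 on the log2(CPM + 1) scale. In the other 4 calves P2RY12 changed by -0.15 to 0.68 and P2RY14 by -0.57 to 0.36. Each receptor was higher in 3 of 6 calves, and the permutation tests gave exact two-sided P of 0.250 and 0.438. P2RY12 was at 0.68 without calf 1758, and P2RY14 at 1.05 without calf 1762. With calf as replicate block the changes were 0.69 and 1.02, with adjusted P of 0.960 for both. The d 2 library of calf 1762 had 2605496 counts, a TMM factor of 0.892 and 13341 genes detected, each the lowest of its group. The part of its depth and quality in these changes was not tested. The changes of calf 1758 rest on a d 0 library that went against its label. Without this calf the mean changes in log2(CPM + 1) were 0.37 for P2RY12 and 0.38 for P2RY14, against 0.64 and 0.71 with all calves. The permutation P was then 0.50 and 0.875.

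On d 7 P2RY12 differed from d 0 in weaned calves by 0.69 (SE 0.42, adjusted P = 0.920) and P2RY14 by 0.18 (SE 0.44, adjusted P = 0.929), with 0% of 14026 genes called, 2.65% at an unadjusted P under 0.05 and 1 call by DESeq2. P2RY12 was higher in 4 and lower in 2 calves, and P2RY14 was higher in 3 and lower in 3. Without calves 1758 and 1770 both values were below 0, at -0.10 and -0.56. Without calf 1758 alone P2RY12 was at 0.15 and P2RY14 at -0.14.

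Within control calves the receptors differed from d 0 by less than their SE on d 1 and d 2. P2RY12 differed from d 0 by 0.20 (SE 0.50) on d 1 and 0.24 (SE 0.42) on d 2, and P2RY14 by -0.49 (SE 0.67) and -0.22 (SE 0.51), with adjusted P of 0.805 to 0.999. The shares of genes called were 0% and 0%, with 0.768% and 5.09% at an unadjusted P under 0.05 and 0 calls by DESeq2 on both days. Without calf 1755 the P2RY12 change of d 1 was -0.26, and the P2RY14 change was -1.02 on d 1 and 0.27 on d 2.

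On d 7 both receptors were below d 0 on average in control calves. P2RY12 differed by -0.62 (SE 0.36, adjusted P = 0.20) and P2RY14 by -0.99 (SE 0.58, adjusted P = 0.195), each lower in 4 of 6 calves, with exact two-sided permutation P of 0.312 and 0.188. This was the comparison with most calls, 3.73% of 13829 genes, and 40.1% of all genes had an unadjusted P under 0.05, 21.8% lower and 18.3% higher. Calves 1755 and 1803, the highest on d 0, gave the P2RY14 changes -1.79 and -2.22 on the log2(CPM + 1) scale, whereas calf 1802 changed by 1.29. Without calf 1802 the P2RY14 difference was -1.79 and was called (adjusted P = 0.04999) together with 790 genes in all, and without calf 1803 it was -0.53. With calf as replicate block it was -1.01 (adjusted P = 0.0740).

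Whether the change from d 0 differed between treatments was tested as an interaction over 24 libraries with calf as replicate block. The weaned change minus the control change was above 0 for both receptors on all 3 days. For P2RY12 it was 0.62 (SE 0.46) on d 1, 0.51 (SE 0.50) on d 2 and 0.98 (SE 0.53) on d 7, with adjusted P of 0.396, 0.602 and 0.185. For P2RY14 it was 1.12 (SE 0.45, unadjusted P = 0.0218, adjusted P = 0.20) on d 1, 1.20 (SE 0.85, adjusted P = 0.512) on d 2 and 1.12 (SE 0.72, adjusted P = 0.259) on d 7. All 3 days share the d 0 libraries, where P2RY14 was already lower in weaned calves. No gene was called by the F-test on any day (0%), and 22.3%, 7.2% and 35.8% of genes had an unadjusted P under 0.05. When 1 calf at a time was left out, all values stayed above 0, from 0.19 for P2RY12 on d 2 without calf 1758 to 1.78 for P2RY14 on d 7 without calf 1802. Without calves 1755, 1758 and 1770 the d 7 values were 0.24 and 0.18.

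**Figure D2:**
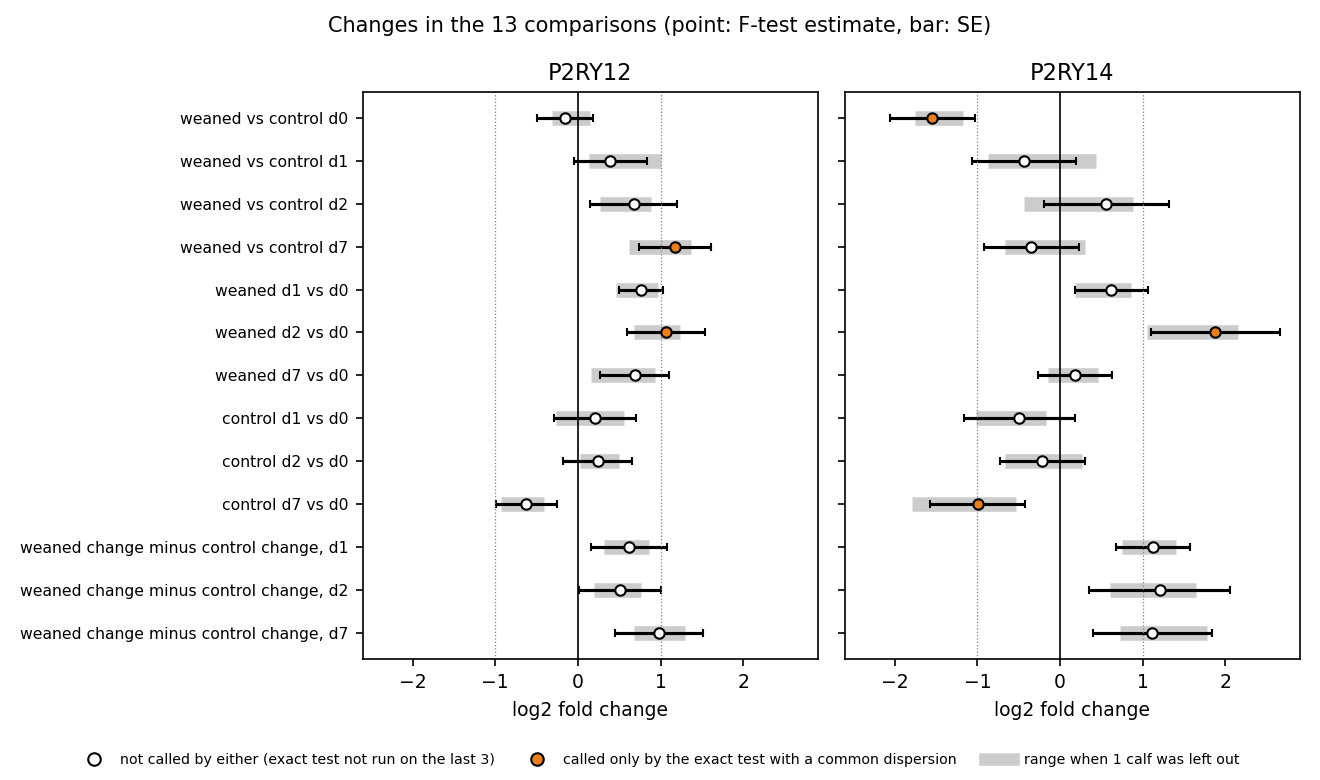
Log2 fold change of P2RY12 (left) and P2RY14 (right) in 13 comparisons, with points at the F-test estimate, bars for the SE and grey bands for the range when 1 calf at a time was left out; dotted lines mark 2-fold. Orange points are the 5 values that, with all calves in the fit, the exact test with 1 dispersion called and the F-test did not, and the bands of P2RY14 between treatments on d 1, 2 and 7 cross 0.

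Another test of the same counts gave other calls. edgeR's exact test with 1 dispersion for all genes called P2RY12 between treatments on d 7 (1.18, adjusted P = 0.00144, 6.21% of genes called) and both receptors in weaned calves on d 2 (1.06 and 1.86, adjusted P = 0.0218 and 7.95e-06, 0.443% of genes called). It also called P2RY14 between treatments on d 0 (-1.57, adjusted P = 7.21e-05, 0.488% called) and in control calves on d 7 (-1.005, adjusted P = 0.00564, 5.37% called). In the other 6 comparisons it called neither receptor and 0.284% (between treatments on d 1), 0.538% (d 2), 0.456% (weaned d 1), 0.271% (weaned d 7), 0% (control d 1) and 0.13% (control d 2) of genes. The fold changes were nearly those of the F-test. This test differs from the F-test both in kind and in its dispersion, and the part of each in the calls was not tested. The dispersion is the squared coefficient of variation between calves beyond counting error. Over the 10 comparisons of groups the common dispersion was 0.0561 to 0.0961, while that of P2RY12 alone was 0.107 to 0.552 and that of P2RY14 alone 0.216 to 1.07. In weaned calves on d 2 against d 0 the P2RY14 dispersion was 11.2 times the common one, above that of 97.5% of the genes tested, and that of P2RY12 was 4.47 times the common one. The smallest excess was that of P2RY12 in weaned calves on d 1 against d 0, 1.76 times.

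**Figure D3:**
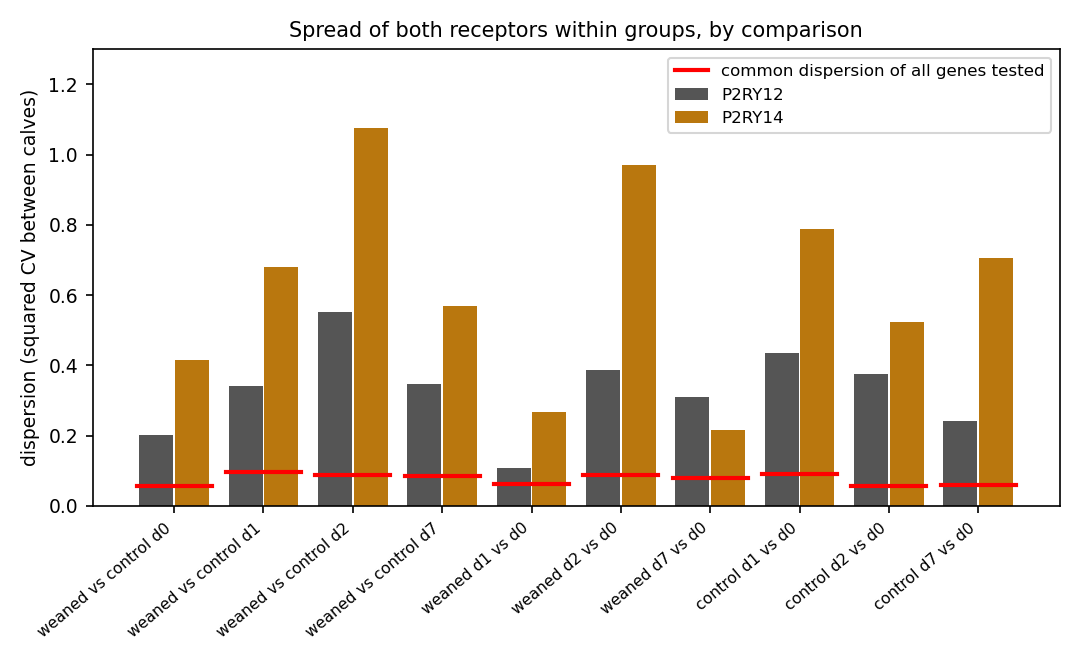
Dispersion between calves of P2RY12 (grey bars) and P2RY14 (brown bars) in each comparison of groups of 6 calves, with red lines at the dispersion estimated in common for all genes tested. Both receptors lie above the common line in all 10 comparisons, and P2RY14 reaches 1.07 between treatments on d 2.

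P2RY12 and P2RY14 tended to be high in the same libraries. Over the 12 calf means of log2(CPM + 1), Pearson's r was 0.665 (permutation P = 0.0191) and Spearman's rho 0.636 (permutation P = 0.0299), and r was 0.554 without calves 1758 and 1759, which lay farthest from the median of P2RY12. As the only relation tested, it needed no further adjustment. Calves 1755, 1758 and 1770 had libraries that went against their labels, and over the 9 calves left without them r was 0.490 (permutation P = 0.184). With fewer calves the test also has less power, and the part of these libraries in the relation was not tested. Within treatments r was 0.913 over the 6 weaned and 0.908 over the 6 control calf means, and 0.255 and 0.730 without the 2 calves farthest from the median of each.

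Over the 48 libraries, which share calves, days and depth, r was 0.653, and 0.670 without the 4 doubtful libraries. It was 0.737 after the group means were removed and 0.644 after the calf means were removed, so that the receptors also varied together from day to day within a calf. Both receptors were correlated with the first principal component of 11071 genes, which held 48.3% of the variance (r = 0.706 for P2RY12 and 0.423 for P2RY14) and was itself correlated with the number of genes detected (r = 0.796). With that component removed, r between the receptors was 0.552. P2RY12 was correlated with the number of genes detected at 0.544 and P2RY14 at 0.136, and the part of library quality in these levels was not tested. Of the variance in log2(CPM + 1), differences between calves held 41.5% for P2RY12 and 40.8% for P2RY14, against 16.5% and 11.8% for the 8 groups of treatment and day and 14.7% and 20.9% for the flowcells. These shares were not corrected for the number of levels, 12 calves against 8 groups and 8 flowcells, and more levels hold more by chance. They also overlap, since each calf belongs to 1 treatment.

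**Figure D4:**
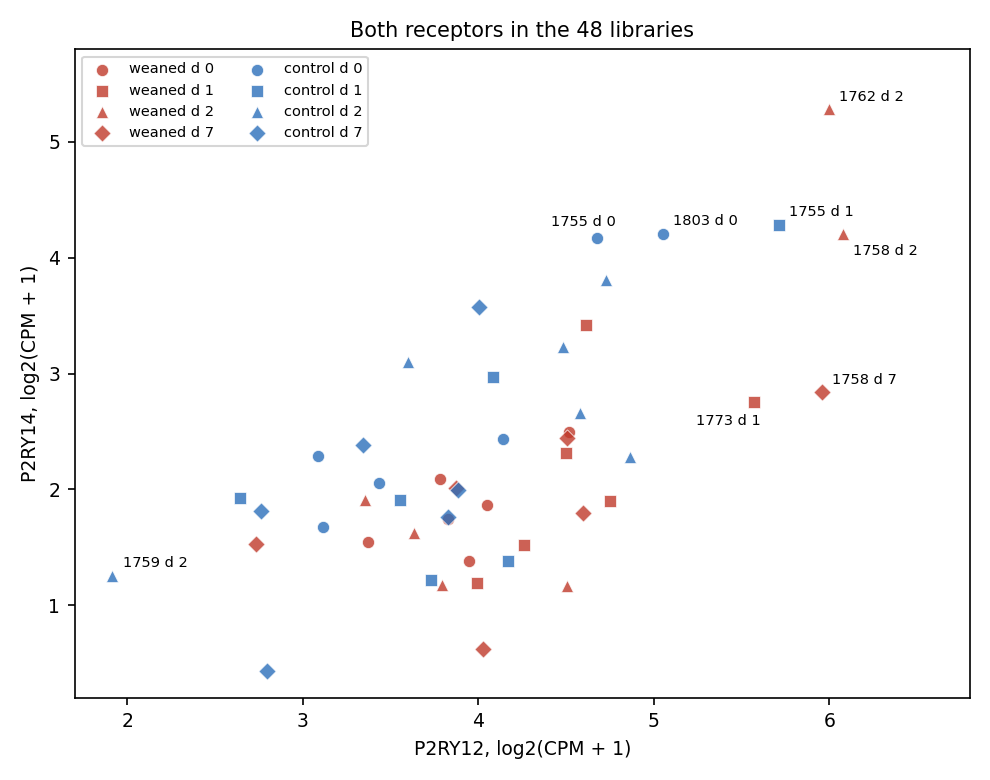
P2RY14 against P2RY12 in the 48 libraries, both as log2(CPM + 1), coloured by treatment and shaped by day, with the outlying libraries named by calf. The libraries of calves 1758 and 1762 on d 2, 1755 on d 0 and d 1 and 1803 on d 0 form the upper right corner, from both treatments.

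Few genes around the receptors could be named. Of 14 receptors listed as P2Y or as relatives of that family, 3 were identified in the table, P2RY12, P2RY14 and LPAR6, a lysophosphatidic acid receptor once counted as P2Y. None of 7 P2X ion channels and 4 adenosine receptors was identified, and these were not analysed here. LPAR6 ranged from 5.27 to 70.3 CPM and was called lower in control calves on d 7 against d 0, by -1.20 (SE 0.33, adjusted P = 0.0293), the only call of the 3, in the comparison where 3.73% of all genes were called. Unadjusted P was also under 0.05 between treatments on d 2 (0.87), in weaned calves on d 1 (0.68), in control calves on d 2 (-0.65) and for the interactions of d 1 (0.84) and d 7 (1.32). The shares of all genes at that P in these comparisons were 3.37%, 10.4%, 5.09%, 22.3% and 35.8%. LPAR6 was 1.35 higher in weaned than in control calves on d 7 (SE 0.42, unadjusted P = 0.00456, adjusted P = 0.158), next to 1.17 for P2RY12 and -0.35 for P2RY14.

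Of 14 enzymes and channels that release or break down extracellular nucleotides, 2 were identified, and neither was called in any comparison. NT5E, the ectoenzyme that turns AMP into adenosine, was 1.41 higher in weaned than in control calves on d 7 (SE 0.50, unadjusted P = 0.0119, adjusted P = 0.158), with 0 to 7.07 CPM over all libraries. In weaned calves NT5E differed from d 0 by 1.17 on d 1 (unadjusted P = 0.0290, adjusted P = 0.423) and by 1.38 on d 7 (unadjusted P = 0.0131, adjusted P = 0.920), and its interaction on d 7 was 2.06 (unadjusted P = 0.00662, adjusted P = 0.0812). ALPL, an alkaline phosphatase, differed from d 0 on d 2 by 1.19 in weaned calves (SE 0.52, unadjusted P = 0.0385, adjusted P = 0.944) and by 1.07 in control calves (SE 0.41, unadjusted P = 0.0177, adjusted P = 0.62).

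A list of 34 genes for Gi signalling also held general regulators of G protein signalling and cyclic nucleotide enzymes, which need not act downstream of these receptors. Of these genes 6 were identified, and none was called in any of the 13 comparisons. Between treatments on d 7, 3 of the 5 tested were higher in weaned calves at an unadjusted P under 0.05 and none was lower, against 17.6% and 7.9% of all genes, with a median of 1.16 against 0.03 over all genes. They were GNAI1, a Gi alpha subunit (1.20, SE 0.50), PRKACB, a catalytic subunit of protein kinase A (0.87, SE 0.32), and RGS1, which ends Gi signals (1.16, SE 0.47), all with adjusted P of 0.158 to 0.172. In weaned calves on d 2 RGS1 was 1.21 above d 0 (SE 0.43, unadjusted P = 0.0131, adjusted P = 0.944), the only one of 5 with an unadjusted P under 0.05. In control calves on d 7 PRKACB was 0.96 below d 0 on the log2 scale (adjusted P = 0.0243), short of 2-fold, and GNAI1 differed by -0.87 (adjusted P = 0.0916). RGS2, another regulator of G protein signalling, was higher on d 7 than on d 0 in weaned calves, by 1.32 (unadjusted P = 0.00247, adjusted P = 0.920), and on d 1 by 1.02 (unadjusted P = 0.0114, adjusted P = 0.423). PDE5A, a cyclic GMP phosphodiesterase with 50 counts in all, had a log2 difference of 2.44 between treatments on d 1 (SE 1.03) and of 1.63 in weaned calves on d 7 against d 0 (SE 0.59), with adjusted P of 0.959 and 0.920 in edgeR. The interactions of these genes were above 0 on d 1 and d 7 wherever an unadjusted P was under 0.05, in PRKACB, RGS1 and RGS2 on d 1 (0.69 to 1.03) and in GNAI1, PRKACB and RGS2 on d 7 (1.02 to 1.11). These were 3 of 6 genes on each day, beside 22.3% and 35.8% of all genes at that P.

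Among the 340 other genes with a symbol and at least 480 counts, the kinase gene JAK2 was most like P2RY12 over the 48 libraries (r = 0.855, 13th of all 11070 genes), followed by RICTOR (0.826), RGS1 (0.819), TGFBR1 (0.816), TEC (0.815), TANK (0.811), PLA2G4A (0.808), TAOK1 (0.783), CEP192 (0.782) and STAM2 (0.780). Likeness of this kind was common for P2RY12, since 5.59% of 11070 genes had r over 0.7. The genes most like P2RY14 were CD274 (0.752), which encodes PD-L1, TEC (0.726), TIAM2 (0.671), P2RY12 itself (0.653), JAK2 (0.647), AGPAT9 (0.638), PBEF1 (0.629), CXCL10 (0.627), RGS1 (0.627) and SV2C (0.626). For P2RY14 only 0.244% of genes had r over 0.7. JAK2, TEC and RGS1 were on both lists. P2RY14 ranked 1202nd of all genes in likeness to P2RY12, and P2RY12 ranked 72nd in likeness to P2RY14.

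Since P2RY12 is known from platelets, markers of blood cells were set beside it. Of 20 platelet markers 7 were identified, and their summed level was 46.5 to 284 CPM over the libraries. In weaned calves it was 100.2 to 197 CPM on d 0, 131 to 284 CPM on d 1, 89.5 to 257 CPM on d 2 and 91.4 to 189.8 CPM on d 7, and in control calves 60.0 to 224 CPM, 96.6 to 236 CPM, 46.5 to 215 CPM and 158 to 249 CPM. The sum had r = -0.08 with P2RY12 and -0.27 with P2RY14 over the 48 libraries. PPBP, a platelet chemokine, had r = -0.22 with P2RY12, and the platelet receptor GP5 was at 0 in 13 libraries. At the median the platelet sum of weaned calves was 149.6, 254, 230.2 and 164 CPM on d 0, 1, 2 and 7, and that of control calves was 172, 163, 131 and 191 CPM. It was thus higher in weaned calves on d 1 and d 2 and lower on d 7. At the median P2RY12 was higher in weaned calves on d 1 (22.5 against 14.1 CPM) and d 7 (18.5 against 11.2 CPM). On d 2 the P2RY12 median was lower in weaned calves (17.3 against 22.1 CPM), although the mean log2(CPM + 1) was higher. The study counted platelets in whole blood of all its calves, which were more than those sequenced. On d 1 these counts went the other way from the platelet sum, with fewer platelets in weaned than in control calves. The part of platelets in the P2RY12 level was not tested.

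Of the other blood cells no list was identified beyond 50%, and the identified markers of T cells (3 of 15), natural killer and gamma delta T cells (4 of 12), eosinophils (3 of 12), basophils and mast cells (4 of 8), dendritic cells (2 of 14) and interferon response (2 of 16) all had counts, although XCL2 was at 0 in 31 libraries. Over the 48 libraries P2RY12 was most strongly correlated with the interferon (r = 0.686), basophil and mast cell (0.621) and T cell (0.574) sums, and P2RY14 with the interferon sum (0.597). On d 7 the T cell sum was 21.7 to 128 CPM in weaned calves and 13.7 to 31.1 CPM in control calves, the basophil and mast cell sum 18.5 to 105.6 CPM and 18.1 to 33.6 CPM, and the interferon sum 62.5 to 210 CPM and 22.7 to 74.4 CPM. The dendritic cell sum was 10.99 to 50.7 CPM and 15.4 to 23.99 CPM, with medians of 34.3 and 17.7 CPM. FCER1A enters both the dendritic cell and the basophil and mast cell sum, so that these sums are not independent. The T cell, basophil and mast cell, interferon and dendritic cell sums were higher in weaned calves at the median, as was P2RY12. Within the interferon sum this held for DDX58 (80.6 against 38.9 CPM) and not for CXCL10 (4.66 against 6.10 CPM). The eosinophil sum was lower, at 94.8 to 261 CPM in weaned and 195 to 885 CPM in control calves. Its medians were 156 and 426 CPM. Within the eosinophil sum this held for ALOX15 (116 against 304 CPM) and SMPD3 (34.5 against 101 CPM) and not for IL5RA (8.55 against 8.07 CPM). Sums of neutrophil (2 of 16), monocyte (1 of 12), B cell (1 of 12) and red cell (3 of 10) markers stayed at or below 7.06, 7.09, 1.57 and 65.3 CPM, and the defining markers of most of these cells were not identified. The study's blood counts on d 1, also from more calves than were sequenced, gave a higher neutrophil and a lower lymphocyte percentage in weaned calves. The part of cell composition in the levels of the receptors was not tested.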

How the data were processed

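Per the labels and the study's methods, the authors sequenced poly(A) RNA of total leukocytes as single reads on an Illumina Genome Analyzer II, aligned them to Btau4.0 with Bowtie 0.12.7 allowing no mismatch, discarded multiply aligned reads, retained a single read per position and counted reads per Ensembl gene with HTSeq 0.4.6p2 in union mode. The authors deposited raw counts, without normalisation. Removing reads at the same position lowers the counts of highly expressed genes. Reads over exons of more than 1 gene are not counted in union mode.

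Counts were compared with edgeR 4.0.16 (R 4.3.3), with TMM normalisation and the quasi-likelihood F-test over the 12 libraries of each pair of groups, and over 24 libraries with calf as block for interactions. Genes with at least 10 counts were tested. CPM used TMM factors over 48 libraries. The 20 permutation tests of single values were exact and two-sided on log2(CPM + 1), and none passed 0.05 with or without Benjamini-Hochberg adjustment over them. Correlation P came from 100000 resamples. Python 3.11.15 with numpy 2.4.6, pandas 2.3.3, scipy 1.17.1 and matplotlib 3.10.9 was used, and the procedures were tested on simulated data. Alternatives were RLE size factors, DESeq2 1.42.0, the exact test, no filter, all 48 libraries in 1 fit, flowcell or calf as block, and leaving out calves. Leaving out the libraries that did not resemble their calf was added after the data were seen.

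The same calf number marks the same animal, which pairs the samples across days. Deviations from the group means correlated within calves at 0.470 (d 1), 0.263 (d 2) and 0.237 (d 7) on average in weaned calves, and at 0.495, 0.338 and 0.219 in control calves, with single calves below 0. In all 120 pairs of libraries of 1 group the counts differed by more than sampling noise (chi-square over its degrees of freedom 2.79 to 57.9), so that each counted as 1 sample. The limit of 3 counts covers counting error only, and PCR copies are not independent molecules.

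The receptors and gene lists were chosen with earlier results of these data known. Named were both receptors, list genes that were called or had an unadjusted P under 0.05, and for each receptor the 10 genes with a symbol and at least 480 counts that were most correlated with it. Cell type markers were given mainly by their sums. Symbols came from the study's ortholog tables, which name 643 genes. Sequences were not used here.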

Additional observations from a re-analysis of the deposited data

Results flagged for a closer look

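In 5 of the 16 groups of a receptor, treatment and day, the highest calf stood apart from the other 5 in CPM by Dixon's test, which chance gives in about 1 of 20 groups. For P2RY12 these were control calf 1755 on d 1 at 51.4 CPM, weaned calf 1773 on d 1 at 46.6 CPM and the library labelled weaned calf 1758 on d 7 at 61.1 CPM. For P2RY14 they were control calf 1755 on d 1 at 18.5 CPM and control calf 1802 on d 7 at 10.9 CPM. The groups share calves, so that they are not independent, and on the log2(CPM + 1) scale 0 of the 16 groups had such a calf. Groups in which a pair of calves was high together, such as weaned calves on d 2 for both receptors, are not found by this test.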

How the results depend on the processing

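Of 187 values of the receptors under the alternatives, leaving out single calves apart, 169 kept their direction and their side of the threshold. With 1 dispersion for all genes, the exact test called P2RY14 between treatments on d 0 (-1.57), P2RY12 between treatments on d 7 (1.18), both in weaned calves on d 2 (1.06 and 1.86) and P2RY14 in control calves on d 7 (-1.005). It called 68, 40, 75 and 865 genes between treatments on d 0, 1, 2 and 7, 64, 62 and 38 in weaned calves on d 1, 2 and 7, and 18 in control calves on d 2, where the F-test called 0. DESeq2 called 26 genes between treatments on d 7, 1 in weaned calves on d 1 and 1 on d 7. Calf as replicate block called 2 genes in weaned calves on d 1 and changed no other call of a receptor. With all 48 libraries in 1 fit, 1 gene was called in control calves on d 7 against 516, and without a filter 625 genes were called for the interaction on d 7 against 0. With flowcell as block the differences between treatments turned to 0.14 for P2RY12 on d 0 and to 0.98 and -0.68 for P2RY14 on d 1 and 2. The cause was not tested.

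The change of weaned calves on d 7 turned below 0 without calves 1758 and 1770 (-0.10 for P2RY12 and -0.56 for P2RY14), for P2RY14 without the libraries that did not resemble their calf (-0.46), and with calf as replicate block in the calves left (-0.14 and -0.56). With that last fit P2RY14 in control calves on d 2 was at 0.37. The permutation tests without those libraries gave -0.21 and -0.44 in weaned calves on d 7 and 0.28 for P2RY14 in control calves on d 2, and r between the receptors over the calves left was 0.490. These settings, apart from leaving out calves 1758 and 1770, were chosen after seeing the data.

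Leaving out 1 calf at a time kept 229 of 240 values. Between treatments P2RY12 ranged from -0.32 to 0.14 on d 0 and from 0.62 to 1.37 on d 7, and P2RY14 from -0.88 to 0.44 on d 1, -0.44 to 0.88 on d 2 and -0.67 to 0.30 on d 7. In weaned calves P2RY14 ranged from -0.14 to 0.46 on d 7. In control calves P2RY12 ranged from -0.26 to 0.56 on d 1, and P2RY14 from -0.67 to 0.27 on d 2 and from -1.79 to -0.53 on d 7. Genes called ranged from 0 to 1137 between treatments on d 7 (without calf 1809), from 0 (without calf 1755) to 1086 (without calf 1803) in control calves on d 7 and from 0 to 1 for the interaction on d 1. P2RY14 had 1 to 88 counts per library, and its dispersion between calves was 0.216 to 1.07, so that changes small against the spread of the calves could not be detected with 6 calves a group.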
